A study of Arabidopsis thaliana with 6 samples.

Results

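WRKY transcription factors are a plant family of DNA-binding proteins. The 53 family members examined here were listed by gene ID, with earlier results of these data known. No count over them is therefore independent support. The table lists 32548 gene IDs. All 53 members were found in it, all 53 passed the filter on low values, and the RefSeq annotation of TAIR10.1 names each of the 53 as a WRKY gene or under an alias (ZAP1 for WRKY1, TTR1 for WRKY16 and TTG2 for WRKY44). They comprise 11 members of subfamily I, 3 of IIa, 6 of IIb, 11 of IIc, 6 of IId, 8 of IIe and 8 of III. They are not offered as the complete family of the species.

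RNA-seq was done on whole Arabidopsis thaliana seedlings of 3 genotypes with 2 libraries each, 6 libraries in all. Col-0 is the wild type. The second genotype, hac1hac5, is the double mutant labelled hac1-/-hac5-/-, mutated in a pair of histone acetyltransferase genes of the p300/CBP type. The third, med8med25, is labelled med8-/-med25-/- and is mutated in genes for a pair of Mediator subunits; Mediator carries signals from DNA-bound factors to RNA polymerase II. Every group was 12 days old, received no treatment, and was grown on Murashige and Skoog plates at 22 °C with 16 h light and 8 h dark per day. Total RNA came from TRIzol extraction and was read as single ends of 50 bases on the MGISEQ-2000 instrument. The labels do not describe the structure of the mutant alleles. They also leave unsaid whether replicates are independent batches of plants, and the p-values below therefore cover only the spread between libraries, part or all of which may be technical.

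WRKY proteins bind a short DNA element called the W-box through a domain that carries the amino acids for which the family is named, together with a zinc finger. Many WRKY genes are switched on quickly by microbial molecules, wounding or salicylic acid, often downstream of MAP kinase cascades, and many WRKY promoters hold W-boxes themselves, so members regulate each other. Subfamily I proteins carry a pair of WRKY domains, whereas the subfamilies of groups II and III carry 1 and differ in the zinc finger and flanking motifs.

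The region just upstream of 6 members is shown because these members span the range of behaviour described below. WRKY33, WRKY40 and WRKY53 were called higher in both mutants, WRKY30 and WRKY15 in hac1hac5 only, and WRKY60 is the IIa member that was not called against Col-0. WRKY15 was at 0.32 in med8med25, with both libraries above those of Col-0, so its missed call does not show that it stayed level. Each window is the 250 bases before the annotated start of the gene, taken from the TAIR10.1 genome, written 5′ to 3′ on the gene's own strand. Capitals mark the W-box TTGACC or TTGACT on either strand (read as GGTCAA or AGTCAA on the other one) and the G-box CACGTG, an element bound by bZIP and bHLH factors.
WRKY33 (AT2G38470, chr2:16107985-16108234, plus strand): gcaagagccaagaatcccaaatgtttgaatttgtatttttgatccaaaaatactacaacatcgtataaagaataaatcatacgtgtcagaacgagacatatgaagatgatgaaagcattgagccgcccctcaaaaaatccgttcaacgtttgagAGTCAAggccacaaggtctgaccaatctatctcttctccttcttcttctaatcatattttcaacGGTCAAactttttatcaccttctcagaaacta
WRKY40 (AT1G80840, chr1:30383311-30383560, plus strand): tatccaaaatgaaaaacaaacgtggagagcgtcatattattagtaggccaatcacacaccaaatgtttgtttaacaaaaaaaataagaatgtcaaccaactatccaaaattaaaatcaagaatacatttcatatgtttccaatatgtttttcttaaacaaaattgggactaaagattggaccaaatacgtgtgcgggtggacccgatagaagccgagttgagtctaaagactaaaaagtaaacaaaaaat
WRKY53 (AT4G23810, chr4:12393983-12394232, minus strand): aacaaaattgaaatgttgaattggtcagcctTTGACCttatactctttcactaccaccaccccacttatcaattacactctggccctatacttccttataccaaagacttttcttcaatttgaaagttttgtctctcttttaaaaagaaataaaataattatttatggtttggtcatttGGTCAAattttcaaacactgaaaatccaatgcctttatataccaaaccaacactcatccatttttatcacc
WRKY30 (AT5G24110, chr5:8154711-8154960, minus strand): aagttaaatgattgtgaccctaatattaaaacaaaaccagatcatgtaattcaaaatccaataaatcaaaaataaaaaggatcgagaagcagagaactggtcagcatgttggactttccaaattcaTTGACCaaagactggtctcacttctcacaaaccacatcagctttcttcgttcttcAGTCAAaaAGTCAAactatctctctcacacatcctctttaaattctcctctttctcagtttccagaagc
WRKY15 (AT2G23320, chr2:9924636-9924885, plus strand): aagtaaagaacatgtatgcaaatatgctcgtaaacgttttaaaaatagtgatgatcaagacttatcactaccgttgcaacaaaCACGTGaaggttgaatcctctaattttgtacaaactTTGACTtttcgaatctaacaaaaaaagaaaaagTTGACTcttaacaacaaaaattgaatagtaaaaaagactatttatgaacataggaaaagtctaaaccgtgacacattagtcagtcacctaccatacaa
WRKY60 (AT2G25000, chr2:10629412-10629661, plus strand): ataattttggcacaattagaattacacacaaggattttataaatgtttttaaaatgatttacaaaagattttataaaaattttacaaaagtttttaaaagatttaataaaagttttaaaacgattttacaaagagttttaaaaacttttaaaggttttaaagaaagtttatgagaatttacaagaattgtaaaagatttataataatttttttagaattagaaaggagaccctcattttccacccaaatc
The windows of WRKY33, WRKY53 and WRKY15 each held 2 W-boxes, that of WRKY30 held 3, and those of WRKY40 and WRKY60 held none. The WRKY15 window also held 1 G-box, 167 bases before the start.

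A W-box in either orientation was present in 19 of the 53 member windows (35.8%), against 28.4% of the windows of 27443 nuclear protein-coding genes. Among the 24 members that were higher in hac1hac5 it was present in 11 (45.8%), among the 15 of these with a log2 change of at least 1 in 9 (60%), and among the 29 remaining members in 8 (27.6%). The element CGCGTT, which calmodulin-binding transcription activators recognise, stood in 2 member windows (3.77%, against 2.59% of all). The G-box stood in 6 (11.3%, against 6.49% of all). These are counts of letters in a fixed window with no test, and they say nothing about where a factor binds.

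The values are the submitters' normalized counts. Deposited sums were 30.3 to 35.5 M normalized counts per library. The whole reads recovered from the values came to 36.2 and 33.1 M (Col-0), 33.9 and 36.8 M (hac1hac5) and 24.9 and 32.3 M (med8med25). The med8med25 replicate 1 library was therefore the shallowest. Replicates correlated across 18049 genes with r of 0.9967 for Col-0, 0.994 for hac1hac5 and 0.9892 for med8med25, and their log2 values differed with an SD of 0.162, 0.211 and 0.294. Over the 53 members these SDs were wider, at 0.308, 0.507 and 0.534. Of the mutated genes, MED8 and MED25 transcripts were lower in med8med25 by log2 changes of -1.43 and -2.15. In hac1hac5, HAC1 was lower at -0.41, whereas HAC5 at -0.38 missed the threshold (limma adjusted p 0.0503), so the transcript level checks that label only in part. The seedling label was checked with marker genes: 4 shoot markers, genes of photosynthesis, summed to 1529000 to 1574000 in Col-0, 1076000 to 1096000 in hac1hac5, and 943300 to 1199000 in med8med25. The 4 root markers summed to 60610 to 60740, 44130 to 51390, and 30360 to 30440 in the same order. Both sums were lower in the mutants. Of the shoot markers only CA1 was called lower, by -1.95 in hac1hac5 and -0.99 in med8med25. RBCS1A, CAB1 and RCA were not called against Col-0 in either mutant. The root sum is mostly PYK10 (57040 and 57310 in Col-0), which was lower in med8med25 by -1.18, whereas PRP3 was higher there by 0.61 and EXPA7 and COBL9 were not called at 0.15 and 0.14. In hac1hac5, PRP3, EXPA7 and COBL9 were lower, by -0.80, -0.78 and -0.46, and PYK10 at -0.33 was not called. The part of these markers in the WRKY results was not tested. The 2 dry seed markers summed to between 42.54 and 842.4 in all libraries. The 2 flower markers reached at most 9.685 when summed, with AG listed at 0 in both mutants. In bulk seedlings, fewer cells of a type and less RNA per cell cannot be told apart.

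In wild-type seedlings the WRKY transcripts were spread over many members. Only 2 members, WRKY41 and WRKY55, stayed under 10 normalized counts in all 6 libraries and are treated as barely expressed. To compare genes with each other, normalized counts were divided by the length of annotated exons. On this per-kilobase scale the most abundant member in Col-0 was WRKY15, a subfamily IId protein linked to cell expansion and stress signalling, at a mean level of 1430, or 12.6 and 12.8% of the WRKY total in the 2 libraries. WRKY65, WRKY39 and WRKY1 followed with mean per-kilobase levels of 720, 648 and 606. WRKY40 stood at rank 32, WRKY18 at rank 37 and WRKY53 at rank 44 of the 53.

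The make-up of the WRKY pool differed between genotypes. Summed per-kilobase levels of the 53 members were 11421 and 11167 for Col-0, 29800 and 34794 for hac1hac5 and 16387 and 14610 for med8med25. The 3 genotypes did not overlap on this sum. WRKY33 made up 3.94 and 3.5% of it for Col-0, 22.6 and 25.8% for hac1hac5 and 16.9 and 12.1% for med8med25, and was the most abundant member in all 4 mutant libraries. WRKY40 held under 1% in Col-0 (0.741 and 0.618%), 11.5 and 11.8% in hac1hac5, and 4.19 and 5.0% in med8med25, moving from rank 32 to ranks 3 and 6. WRKY18 moved to rank 6 in hac1hac5 and was at rank 36 in med8med25, and WRKY53 moved to ranks 8 and 28.

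**Figure D1:**
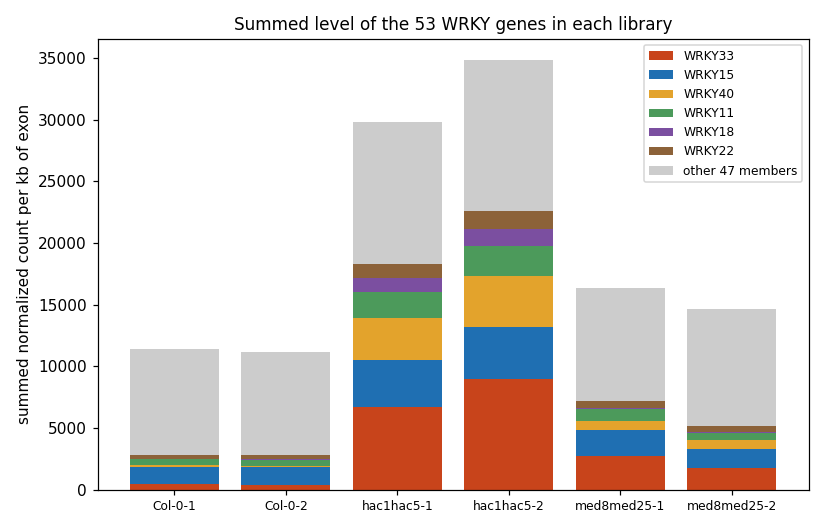
Summed WRKY level in each of the 6 libraries, as normalized counts per kilobase of exon (vertical axis), with 6 abundant members coloured and the other 47 in grey. The hac1hac5 bars reach 29800 and 34794 against 11421 and 11167 in Col-0, and WRKY33 is the largest coloured segment in the mutant libraries.

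Each library's level is plotted for all members on a log2 scale.

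**Figure D2:**
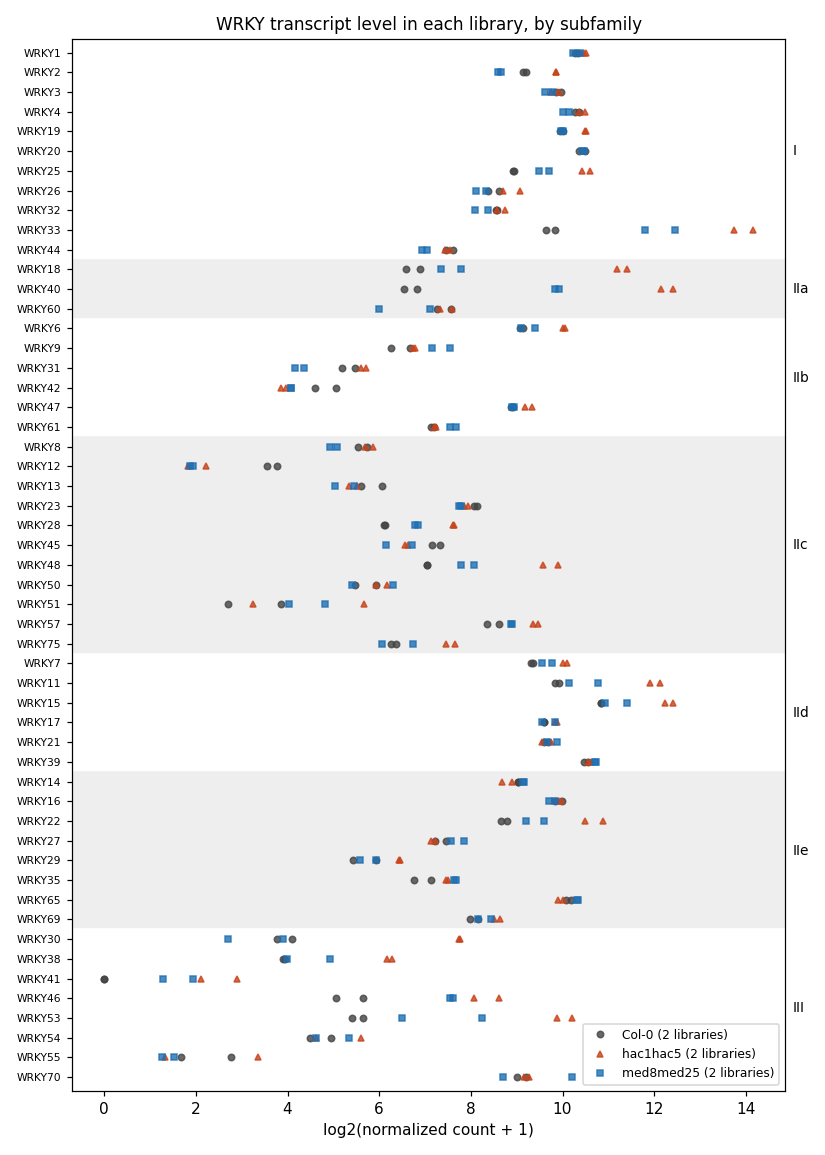
Transcript level of the 53 WRKY members in each library, by subfamily (horizontal axis, log2 of the normalized count plus 1; each point is 1 library, 2 per genotype). The hac1hac5 points of WRKY18, WRKY40, WRKY33 and WRKY53 stand far to the right of the Col-0 points, while most members of subfamily I lie close together in all 3 genotypes.

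The first comparison asked how WRKY transcripts differed between hac1hac5 and the wild type. WRKY40 and WRKY18 of subfamily IIa, WRKY53 of III and WRKY33 of I rose by log2 changes above 4, and 3 members fell. Tests were fitted with limma across 23898 genes, with a call at a Benjamini-Hochberg adjusted p under 0.05. Of the 53 members, 24 (45.3%) were higher in hac1hac5, where 17.4% of all genes tested were called higher, and 3 (5.66%) were lower, where 21% of all genes were. With a log2 change of at least 1 the counts were 15 higher (28.3%, against 7.15% of all genes) and 1 lower (1.89%, against 5.53%). The median log2 change was 0.35 over the members and -0.02 over all genes. The members called lower were WRKY12, WRKY42 and WRKY45, and 26 members were not called. When 1 library of a compared genotype was left out, few lower calls held, whereas most higher calls did. Such a fit has 1 library in a genotype, so a lost call need not be a smaller change. WRKY12 was at -1.54 without Col-0 replicate 1 and at -1.75 without Col-0 replicate 2, against -1.64 with all libraries.

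The second comparison set med8med25 against the wild type. WRKY40, WRKY33, WRKY46 and WRKY53 were again well above Col-0, most other members had log2 changes under 1 in size, and WRKY12 and WRKY31 were more than 2-fold lower. In all, 15 members (28.3%) were higher, where 12.3% of all genes were called higher, and 5 (9.43%) were lower, where 14.3% of all genes were. With a log2 change of at least 1 the counts were 4 higher (7.55%, against 3.31% of all genes) and 2 lower (3.77%, against 4.07%). The median log2 change was 0.14 over the members and 0.00 over all genes, and 33 members were not called. These counts changed when 1 library was left out, and not only a Col-0 library. Calls were also lost in these smaller fits without a smaller change. WRKY31 was at -1.21 without Col-0 replicate 2, against -1.07 with all libraries, and WRKY11 stayed at 0.58 without either hac1hac5 library. The 6 members whose med8med25 call held in every alternative tried were WRKY2, WRKY25, WRKY33, WRKY40, WRKY46 and WRKY48.

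The 2 mutants were also compared directly. WRKY transcripts were mostly lower in med8med25 than in hac1hac5: 28 members (52.8%) were lower, where 20.5% of all genes were called lower, and 5 (9.43%) were higher, where 20.9% of all genes were. By a log2 change of at least 1, 13 members (24.5%, against 6.84% of all genes) were lower and 0 were higher, against 4.49% of all genes. The median log2 difference was -0.43 over the members and -0.01 over all genes. The 5 that were higher in med8med25 were WRKY9 of subfamily IIb, WRKY61 of IIb, and WRKY14, WRKY27 and WRKY65 of IIe, with log2 differences between 0.36 and 0.58. Leaving out hac1hac5 replicate 2 brought the 28 lower calls down to 18. Leaving out 1 library also lowered the 5 higher calls to 1 (hac1hac5 replicate 1), 2 (hac1hac5 replicate 2) or 3 (Col-0 replicate 1, Col-0 replicate 2 or med8med25 replicate 2).

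Both mutants were measured against the same Col-0 libraries, so calls shared by the mutants are not independent of each other, and the changes of each member are given side by side below. WRKY2 was called in opposite directions in the mutants and also differed between them by the direct test.

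**Figure D3:**
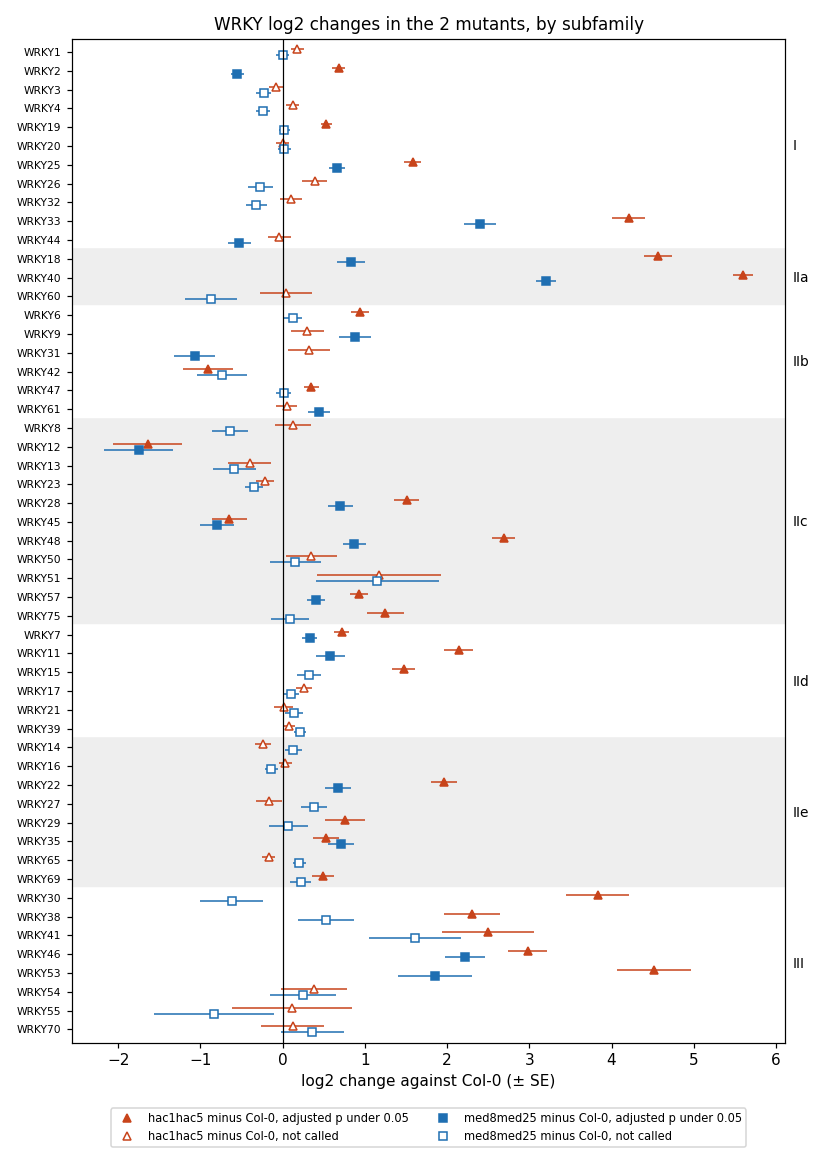
Log2 change of each of the 53 members against Col-0 (horizontal axis, ± SE from the limma fit), by subfamily, in hac1hac5 (triangles) and med8med25 (squares). Filled symbols have an adjusted p under 0.05; WRKY40 and WRKY18 reach 5.60 and 4.56 in hac1hac5 and 3.20 and 0.83 in med8med25.

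Subfamily IIa holds WRKY18, WRKY40 and WRKY60, proteins that bind one another and act together in immunity and abscisic acid signalling. WRKY40 (AT1G80840, TAIR10.1 chr1:30383561-30385499) had 112.2 and 91.45 normalized counts for Col-0, 4543 and 5447 for hac1hac5 and 910.1 and 968.5 for med8med25. None of the genotypes overlapped, and the order was Col-0, med8med25, hac1hac5. The log2 change was 5.60 ± 0.12 (SE, n = 2 libraries per genotype) in hac1hac5, a 49.1-fold difference of means (limma adjusted p 1.24e-07), and 3.20 ± 0.12 or 9.22-fold in med8med25 (limma adjusted p 5.49e-06). Here and below, each SE comes from a spread pooled over all 3 genotypes, so it is not the precision of the compared pair alone. Of the 50-base windows along the WRKY40 exons, 4.1% also occur elsewhere in the genome.

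WRKY18 (AT4G31800, chr4:15382777-15385100) parted from WRKY40 in the Mediator mutant. It had 117.1 and 94.68 normalized counts for Col-0, 2325 and 2710 for hac1hac5 and 220 and 161 for med8med25. The hac1hac5 libraries stood far above the other 4, and both med8med25 libraries lay above Col-0. The log2 change was 4.56 ± 0.17 in hac1hac5 (23.8-fold, limma adjusted p 1.08e-06) and 0.83 ± 0.17 in med8med25 (1.8-fold, limma adjusted p 0.00883). The latter call was lost without Col-0 replicate 2, at 0.68.

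WRKY60 (AT2G25000) had 153.5 and 189.7 normalized counts for Col-0, 191.7 and 160.5 for hac1hac5 and 62.71 and 136.7 for med8med25. Its hac1hac5 libraries overlapped those of Col-0, and both med8med25 libraries were below all others. The log2 change was 0.04 ± 0.32 in hac1hac5 and -0.87 ± 0.32 in med8med25 (limma adjusted p 0.937 and 0.0784). The difference of -0.91 between the mutants passed at a limma adjusted p of 0.0498, but was lost when any 1 library other than med8med25 replicate 2 was left out (-0.36 without med8med25 replicate 1, -0.79 to -1.04 without the others). Without med8med25 replicate 2, the change against Col-0 was -1.43 and was called.

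WRKY33, the subfamily I member known for activating camalexin synthesis and resistance to necrotrophic fungi as a target of MPK3 and MPK6, lies at chr2:16108235-16110766. Its normalized counts were 913.5 and 793.4 for Col-0, 13670 and 18240 for hac1hac5 and 5607 and 3589 for med8med25. The 3 genotypes were fully separate, and WRKY33 had more counts in Col-0 than WRKY18, WRKY40 and WRKY53, the other members with log2 changes above 4 in hac1hac5. The log2 change was 4.21 ± 0.20 in hac1hac5 (18.7-fold, limma adjusted p 3.53e-06) and 2.40 ± 0.20 in med8med25 (5.39-fold, limma adjusted p 0.000144), and the mutants differed by -1.82 ± 0.20.

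Other members of subfamily I moved less. WRKY25, which acts beside WRKY33 and WRKY26 in heat tolerance, had 492.9 and 480.9 normalized counts for Col-0, 1374 and 1543 for hac1hac5 and 830 and 717.6 for med8med25. The genotypes kept the order seen for WRKY33, with log2 changes of 1.58 ± 0.10 and 0.66 ± 0.10 (limma adjusted p 1.13e-05 and 0.00203). WRKY2, a regulator of seed germination and of pollen and zygote development, had 591.5 and 559.3 for Col-0, 922.6 and 921.3 for hac1hac5 and 400.2 and 384.7 for med8med25. Here the mutants stood on opposite sides of the wild type, with log2 changes of 0.68 ± 0.08 and -0.55 ± 0.08 and a difference between mutants of -1.23 ± 0.08 (limma adjusted p 0.000378, 0.00214 and 2.58e-05).

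The remaining subfamily I members changed little. WRKY19, which encodes a protein fused to immune receptor and kinase domains, rose by 0.53 in hac1hac5 and was at 0.02 in med8med25. TTG2 (WRKY44), needed for trichomes and seed coat pigment, was at -0.04 in hac1hac5 and was lower by -0.53 in med8med25, a call lost without Col-0 replicate 1, Col-0 replicate 2 or med8med25 replicate 1. WRKY1, WRKY3, WRKY4, WRKY20, WRKY26 and WRKY32 were not called against Col-0 in either mutant, with log2 changes from -0.08 to 0.39 in hac1hac5 and from -0.32 to 0.02 in med8med25. Of these, WRKY4, WRKY26 and WRKY32 were lower in med8med25 than in hac1hac5, by -0.36, -0.66 and -0.43, and these calls were lost without hac1hac5 replicate 2, that of WRKY32 also without Col-0 replicate 1, Col-0 replicate 2 or med8med25 replicate 1. Against Col-0, WRKY1, WRKY4 and WRKY26 were called higher in hac1hac5 with libraries scaled to equal totals. WRKY1 and WRKY26 were also called there when only the genotypes compared were fitted.

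Subfamily III, whose zinc finger differs from that of the other groups, held members that rose in both mutants, members that rose in hac1hac5 and were not called in med8med25, and members not called in either. WRKY53 (chr4:12392370-12393982, minus strand), a promoter of leaf senescence that also acts in defence, had 41.51 and 49.26 normalized counts for Col-0, 948.1 and 1181 for hac1hac5 and 302.7 and 89.83 for med8med25. All 4 mutant libraries were above Col-0, but the med8med25 libraries differed from each other by more than 3-fold. The log2 change was 4.52 ± 0.45 in hac1hac5 (23.5-fold, limma adjusted p 0.000136). In med8med25 it was 1.85 ± 0.45 (limma adjusted p 0.019), with the call lost without Col-0 replicate 1 (1.72) or Col-0 replicate 2 (1.97), and with values of 0.97 and 2.72 when med8med25 replicate 1 or 2 was left out. It was also lost with limma voom, at 1.86 on the deposited values and 1.77 on the recovered reads. About 20.5% of the exon bases of WRKY53 lie opposite AT4G23800, whose counts fell from 977 and 1099 in Col-0 to 647.3 and 714.3 in med8med25 and were 943.5 and 884.9 in hac1hac5.

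WRKY46, a partner of WRKY53 and WRKY70 in basal resistance, had 49.4 and 32.44 normalized counts for Col-0, 266.3 and 391.4 for hac1hac5 and 194 and 185.7 for med8med25. Every mutant library was above both wild-type ones, and the mutants were closer to each other than for WRKY53. The log2 changes were 2.98 ± 0.24 and 2.22 ± 0.24 (limma adjusted p 4.45e-05 and 0.000472). The difference between mutants of -0.76 (limma adjusted p 0.0347) was lost without hac1hac5 replicate 2 (-0.49), med8med25 replicate 1 (-0.79) or med8med25 replicate 2 (-0.73).

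WRKY30 and WRKY38 were raised in hac1hac5 alone by these calls. WRKY30, tied to oxidative stress responses in young seedlings, had 12.54 and 16.04 normalized counts for Col-0, 215.8 and 214.4 for hac1hac5 and 13.89 and 5.523 for med8med25. Its med8med25 libraries overlapped the wild type. The log2 change was 3.83 ± 0.38 in hac1hac5 (15-fold, limma adjusted p 0.000134) and -0.62 ± 0.38 in med8med25 (limma adjusted p 0.269, but called at -1.22 without med8med25 replicate 1). The difference of -4.45 ± 0.38 between mutants (limma adjusted p 8.11e-05) was the widest of the 53 members. WRKY38, which restrains basal defence and binds a histone deacetylase, had 14.5 and 13.97 for Col-0, 71.22 and 76.75 for hac1hac5 and 29.35 and 14.84 for med8med25. Both med8med25 libraries lay between the other genotypes, with log2 changes of 2.30 ± 0.34 and 0.53 ± 0.34 (limma adjusted p 0.000999 and 0.286, the latter called at 0.99 without med8med25 replicate 2).

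WRKY70, which balances salicylic acid and jasmonic acid responses, had 586.8 and 510.1 normalized counts for Col-0, 573.9 and 617.6 for hac1hac5 and 416.8 and 1183 for med8med25. The Col-0 and hac1hac5 libraries overlapped, and the med8med25 libraries fell on either side of all 4 of them. Its log2 change was 0.12 ± 0.38 in hac1hac5 and 0.36 ± 0.38 in med8med25 (limma adjusted p 0.829 and 0.529). The SE is pooled over genotypes: replicates differed 2.84-fold in med8med25, against 1.15-fold in Col-0 and 1.08-fold in hac1hac5. The med8med25 value depended on the library: it was 1.11 without replicate 1 and -0.39 without replicate 2, each past the threshold in that smaller fit.

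WRKY41, a regulator of seed dormancy, was listed at 0 in both Col-0 libraries and had 6.387 and 3.335 normalized counts in hac1hac5 and 1.446 and 2.83 in med8med25. These are a few reads, so no fold is given, and the fitted log2 change of 2.50 in hac1hac5 (limma adjusted p 0.00858) depends on the pseudocount and was not called without hac1hac5 replicate 1. Its exons share 41.7% of their bases with AT4G11080 on the opposite strand, which had 203.2 to 354.1 counts in the 6 libraries. WRKY54, the closest relative of WRKY70, and WRKY55 were not called in any comparison, with ranges over the 6 libraries of 21.6 to 47.44 and 1.386 to 9.222.

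**Figure D4:**
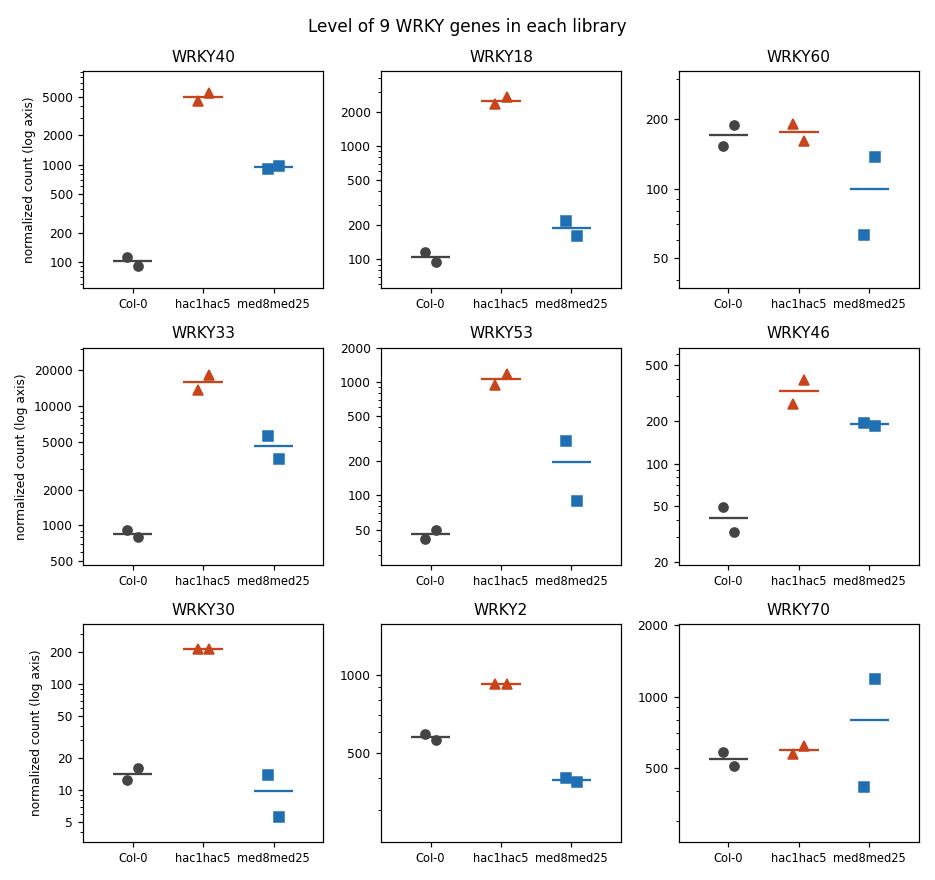
Normalized counts of 9 WRKY members in each library (vertical log axis; each point is 1 library, 2 per genotype). Horizontal bars are means. WRKY18 and WRKY30 have their high values in the hac1hac5 libraries, WRKY40 and WRKY33 are intermediate in med8med25, and WRKY70 has its lowest and highest values in the med8med25 pair.

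Subfamily IIc had 4 members higher and 2 lower in hac1hac5, and 3 higher and 2 lower in med8med25, out of 11. Over all genes, 17.4% were called higher and 21% lower in hac1hac5, and 12.3% and 14.3% in med8med25, so the IIc share of lower calls (18.2% in each mutant) was near that background. WRKY48, a repressor of basal defence, had 131.4 and 130.9 normalized counts for Col-0, 761.2 and 949.8 for hac1hac5 and 265.6 and 218.4 for med8med25. The genotypes were separate, with log2 changes of 2.69 ± 0.14 and 0.87 ± 0.14 (limma adjusted p 5.58e-06 and 0.00343). WRKY28, an activator of the salicylic acid gene ICS1, had 68.62 and 67.63 for Col-0, 196.8 and 193.7 for hac1hac5 and 108.7 and 114.5 for med8med25. It kept the same order, with log2 changes of 1.51 ± 0.15 and 0.70 ± 0.15 (limma adjusted p 0.00012 and 0.0099), the second lost without Col-0 replicate 1 (0.71) or 2 (0.69).

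WRKY75, which acts in phosphate starvation and senescence, had 75.35 and 81.5 normalized counts for Col-0, 201.6 and 174.4 for hac1hac5 and 65.43 and 106.4 for med8med25. Only the hac1hac5 libraries stood clear of the wild type. Its log2 changes were 1.25 ± 0.23 and 0.09 ± 0.23 (limma adjusted p 0.00363 and 0.812). WRKY57, a factor in drought tolerance, rose by 0.93 in hac1hac5 and by 0.41 in med8med25, the second lost without Col-0 replicate 1 or med8med25 replicate 1.

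The members of subfamily IIc that fell were of low or moderate level. WRKY12, which promotes flowering and limits wall thickening in pith, had 12.58 and 10.77 normalized counts for Col-0, 3.629 and 2.535 for hac1hac5 and 2.682 and 2.812 for med8med25. Both mutants lay below the wild type at a depth of a few reads, with log2 changes of -1.64 ± 0.42 and -1.75 ± 0.42 (limma adjusted p 0.0147 and 0.0164). The hac1hac5 call was lost without Col-0 replicate 1 (-1.54), Col-0 replicate 2 (-1.75) or hac1hac5 replicate 2 (-1.45), and the med8med25 call without Col-0 replicate 1 (-1.65) or 2 (-1.86). WRKY45, an activator of phosphate uptake, was lower by -0.65 and -0.80, calls lost without either Col-0 library, in hac1hac5 also without either of its own libraries, and in med8med25 also without its replicate 1. WRKY8, WRKY13, WRKY23, WRKY50 and WRKY51 were not called against Col-0. WRKY8, which acts in salt and virus responses, was lower in med8med25 than in hac1hac5 by -0.77, a call lost without either hac1hac5 library or med8med25 replicate 1. WRKY51, at 5.497 to 49.68 over the 6 libraries, had log2 changes of 1.17 and 1.15 but its replicates disagreed.

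Subfamily IId proteins bind calmodulin, and 3 of 6 rose in hac1hac5, where 17.4% of all genes were called higher, and 2 in med8med25, where 12.3% were. WRKY11, a repressor of basal resistance with WRKY17, had 914.2 and 967.9 normalized counts for Col-0, 3823 and 4502 for hac1hac5 and 1745 and 1128 for med8med25. All mutant libraries exceeded the wild type, with a log2 change of 2.14 ± 0.18 in hac1hac5 (4.42-fold, limma adjusted p 5.02e-05) and 0.58 ± 0.18 in med8med25 (limma adjusted p 0.045). The second was lost on leaving out any library other than med8med25 replicate 2, with values of 0.26 without med8med25 replicate 1 and 0.54 to 0.62 without the others. WRKY15 had 1845 and 1835 for Col-0, 4826 and 5406 for hac1hac5 and 2704 and 1953 for med8med25. Its log2 change was 1.47 ± 0.14 in hac1hac5 (limma adjusted p 9.12e-05) and 0.32 ± 0.14 in med8med25 (limma adjusted p 0.123, called at 0.55 without med8med25 replicate 2). WRKY7 rose by 0.72 and 0.33, the second lost without any 1 library other than med8med25 replicate 2, and WRKY17, WRKY21 and WRKY39 were not called, at 0.01 to 0.26. With libraries scaled to equal totals, WRKY17 was called higher in hac1hac5 and WRKY39 in med8med25. WRKY17 was also called when only the genotypes compared were fitted, and WRKY39 with some other settings of pseudocount, filter and scaling.

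Subfamily IIe includes WRKY22 and WRKY29, known as outputs of the MAP kinase cascade triggered by bacterial flagellin. WRKY22 had 403.9 and 440.9 normalized counts for Col-0, 1435 and 1883 for hac1hac5 and 775.8 and 585 for med8med25. The genotypes were separate, with log2 changes of 1.96 ± 0.16 and 0.67 ± 0.16 (limma adjusted p 4.52e-05 and 0.0165). The second was lost without Col-0 replicate 1 (0.61), Col-0 replicate 2 (0.74) or med8med25 replicate 1 (0.47). WRKY29 rose by 0.76 in hac1hac5 and was at 0.07 in med8med25; 18.0% of its exon bases face AT4G23560, which had almost no reads. WRKY35 rose in both mutants, by 0.53 and 0.71, and WRKY69 in hac1hac5 by 0.49. Each of these smaller calls in hac1hac5 was lost on leaving out either hac1hac5 library, those of WRKY29 and WRKY35 also without Col-0 replicate 2, and that of WRKY69 without Col-0 replicate 1. In med8med25 the WRKY35 call was lost without Col-0 replicate 2. WRKY14, WRKY16, WRKY27 and WRKY65 were not called against Col-0, and WRKY69 shares 21.1% of its exon bases with other genes, among them AT3G58720, which fell by 0.64 in hac1hac5.

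Subfamily IIb had 2 members higher and 1 lower in hac1hac5, and 2 higher and 1 lower in med8med25, out of 6. The 1 lower call in each (16.7%) is near the 21% and 14.3% of all genes called lower, and the higher calls (33.3%) compare with 17.4% and 12.3%. WRKY6, a senescence and defence factor that represses the phosphate exporter gene PHO1, rose by 0.94 in hac1hac5 (limma adjusted p 0.000292) and was at 0.13 in med8med25. Its relative WRKY42, which also acts on PHO1, was lower by -0.91 in hac1hac5 at 13.51 and 14.66 counts against 23.13 and 32.06, a call lost on leaving out any 1 of these 4 libraries. WRKY31 had 43.54 and 35.54 normalized counts for Col-0, 51.53 and 47.23 for hac1hac5 and 19.65 and 16.85 for med8med25. It was lower only in the Mediator mutant, by -1.07 ± 0.25 against Col-0 and by -1.39 ± 0.25 against hac1hac5 (limma adjusted p 0.0149 and 0.00279), and the first was lost without Col-0 replicate 1 (-0.93) or 2 (-1.21). WRKY9 rose by 0.88 and WRKY61 by 0.44 in med8med25, and they were not called in hac1hac5, at 0.30 and 0.05. In med8med25, WRKY9 lost its call without Col-0 replicate 2 or med8med25 replicate 2, and WRKY61 without any 1 library other than med8med25 replicate 1. WRKY47 rose by 0.35 in hac1hac5, which was lost without Col-0 replicate 1, Col-0 replicate 2 or hac1hac5 replicate 2.

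Genes that act upstream of WRKY proteins were described from a list of 9 MAP kinases and kinase kinases. In hac1hac5, 6 of 9 (66.7%, against 17.4% of all genes) were higher and 1 (11.1%, against 21%) was lower, with a median log2 change of 0.84. MKK9 had 250.3 and 253.3 normalized counts for Col-0, 1720 and 1744 for hac1hac5 and 515 and 421 for med8med25, log2 changes of 2.78 and 0.88. MPK3, the kinase that phosphorylates WRKY33, had 2115 and 2031 for Col-0, 7850 and 11690 for hac1hac5 and 2642 and 2322 for med8med25, log2 changes of 2.21 (limma adjusted p 2.5e-05) and 0.26 (limma adjusted p 0.279). MKK4, MEKK1 and MKK5 were higher in hac1hac5 by 1.02, 0.94 and 0.84, while MPK6 at -0.10 and MPK4 at 0.17 were not called. In med8med25, 3 of 9 (33.3%, against 12.3% of all genes) were higher, namely MKK9, MKK4 at 0.64 and MKK5 at 0.52, and the 6 others did not pass the threshold.

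VQ proteins bind WRKY factors and change their activity. Of 12 listed, 10 were tested, while SIB2 and AT2G22880 were listed at 0 in all libraries. In hac1hac5, 5 (50%, against 17.4% of all genes) were higher, with a median log2 change of 0.92. In med8med25, 2 (20%, against 12.3%) were higher, with a median of 0.14. CAMBP25 rose in both mutants, by 2.46 and 2.02. SIB1 and MKS1, partners of WRKY33, rose in hac1hac5 by 1.51 and 1.47 and were at 0.48 and 0.55 in med8med25, not called. AT1G78410 rose by 2.74 in hac1hac5 and was at -1.03, not called, in med8med25. VQ29 was listed at 0 in Col-0 and med8med25 and had 7.179 and 8.648 counts in hac1hac5. It is among the 5 higher calls in hac1hac5 but passed the filter on low values through that genotype alone. The share and median given for hac1hac5 therefore rest in part on the filter. PDE337 rose by 0.99 in med8med25 and was at 0.24 in hac1hac5, not called.

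Genes reported as WRKY targets were taken as a list of 20, of which 19 were tested and ABI4 was not. The list mixes genes reported as activated, such as ACS6 and PAD3, with genes reported as repressed, such as ABI5 and PHO1. Its counts are therefore not a measure of WRKY activity. In hac1hac5, 12 were higher (63.2%, against 17.4% of all genes) and 2 of 19 lower (against 21%), with a median log2 change of 1.12. In med8med25, 7 were higher (36.8%, against 12.3%) and 5 lower (26.3%, against 14.3%), with a median of 0.24. Between the mutants, 14 were lower in med8med25 (73.7%, against 20.5%) and 3 higher (15.8%, against 20.9%). RRTF1, a redox-responsive factor bound by WRKY40, had 0.9555 and 2.131 normalized counts for Col-0, 575.8 and 836.8 for hac1hac5 and 19.16 and 10.21 for med8med25, log2 changes of 8.13 and 2.6. JAZ8, a repressor of jasmonate signalling, changed by 5.90 and 2.58. ACS6, an ethylene synthesis gene activated by WRKY33, rose by 4.28 and 3.02, and the mitochondrial protein gene OM66 by 2.93 and 2.79. FRK1, the flagellin-induced kinase used as a WRKY22 and WRKY29 output, rose by 3.55 in hac1hac5 and was at 0.35 in med8med25, not called. ICS1, named above beside WRKY28, was at 0.02 in hac1hac5, not called, and rose by 0.42 in med8med25.

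The targets in the list include 3 camalexin genes, of which 1 fell, 1 rose and 1 was not called in hac1hac5. PAD3, a gene activated by WRKY33 for the last enzyme of camalexin synthesis, had 149.7 and 185.4 normalized counts for Col-0, 68.12 and 99.73 for hac1hac5 and 37.31 and 22.34 for med8med25. It was lower in both mutants, by -1.01 and -2.49 (limma adjusted p 0.0255 and 0.000665), in the same libraries in which WRKY33 was higher. CYP71A13, an earlier enzyme of the route, was at 0.12 in hac1hac5, not called, and lower by -2.32 in med8med25. CYP71A12, its close relative, rose by 1.52 in hac1hac5 and fell by 1.88 in med8med25. ABI5, a germination factor under WRKY40 repression, rose by 1.89 in hac1hac5, where WRKY40 was also higher, was at -0.60 in med8med25, not called, and differed by -2.49 between the mutants. The phosphate exporter gene PHO1, a target of WRKY6 and WRKY42, fell by 0.74 in hac1hac5 and by 0.29 in med8med25.

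Many of the WRKY genes with the largest changes are also known to respond within minutes to touch and wounding. A list of 12 such genes was measured beside them. It was chosen with earlier results of these data known, so its counts are not independent support. All 12 were higher in hac1hac5, where 17.4% of all genes were, with log2 changes from 2.68 to 7.55 and a median of 4.57. In med8med25, 11 of 12 were higher, where 12.3% of all genes were, with a median of 2.50. All 12 were lower in med8med25 than in hac1hac5, where 20.5% of all genes were, with a median of -2.03. Summed normalized counts of the list were 5028 to 5304 for Col-0, 67850 to 85240 for hac1hac5 and 23380 to 25010 for med8med25. ZAT10, a zinc finger repressor, had 89.02 and 69.99 for Col-0, 8448 and 9800 for hac1hac5 and 1907 and 1789 for med8med25. The calcium sensor gene CML38 was the exception in med8med25, at 102.4 and 121.1 for Col-0, 3132 and 4241 for hac1hac5 and 108.7 and 44.47 for med8med25. CBF1, FBS1 and ERF11 rose by 7.55, 7.09 and 6.34 in hac1hac5 and by 3.98, 2.76 and 2.87 in med8med25. The sum of the list, though not CML38, moved in the order seen for WRKY33 and WRKY40. The part of these genes in the WRKY result was not tested. Any difference in growth or harvest between the genotypes cannot be told apart from the mutations in this design.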

How the data were processed

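The 6 libraries of 3 genotypes were compared. Per the submitters' processing notes, HISAT2, featureCounts and edgeR were used with TAIR10. Neither the strand setting nor the gene annotation is given in the sources used here. Deposited signal values are the authors' normalized counts per gene. They were found to be whole reads adjusted to a common library of 32.6 M reads with a dispersion of 0.006967: all 195288 values (100%) came out whole within a relative tolerance of 1e-06 with 7 fitted parameters. Of 32548 gene IDs, 6389 had no read.

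Here log2(normalized count + 1) of the 23898 genes reaching 1 in 2 or more libraries was fitted with limma 3.58.1 (R 4.3.3), with genotype as the only term, the 6 libraries sharing 1 spread (3 residual and 5.3 prior degrees of freedom), an intensity trend and Benjamini-Hochberg adjustment over all 23898 genes. Folds are ratios of mean normalized counts. A count test on the recovered reads was replaced by limma's voom, chosen after seeing the data. The code was also run on simulated counts that shared a single dispersion across libraries, which tests the code and not the calls made here. Counting error is covered only as far as reads are independent molecules, since there are no molecular identifiers. Alternatives were another pseudocount, filters, scaling, voom, a replicate block, only the genotypes compared, and leaving out each library.

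Values in every library are given for members called against Col-0, or between the mutants, with a log2 change of at least 1, and for WRKY18, WRKY40, WRKY60, WRKY33, WRKY53 and WRKY70. From other lists, the genes called with the 5 largest changes in each comparison were eligible. The members and lists were chosen with earlier results of these data known, so no count over them is independent support. Coordinates, exon lengths and promoters come from RefSeq's TAIR10.1 genome and annotation, in which all 53 members were found.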

Additional observations from a re-analysis of the deposited data

How the results depend on the processing

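Of the calls over all 53 members, those that held under every alternative were 19 of 27 for hac1hac5 against Col-0, 6 of 20 for med8med25 against Col-0 and 18 of 33 between the mutants. Of the members not called, 10 of 26, 9 of 33 and 8 of 20 in the same order kept direction and stayed uncalled under every alternative. A result of not called was therefore not a stable one either. The 24 members higher in hac1hac5 became 29 when libraries were scaled to equal totals, which shifts the median log2 change of all genes by 0.18 in hac1hac5, 0.15 in med8med25 and -0.02 between the mutants. That scaling changed the calls over all genes from 4156 higher and 5010 lower to 6017 and 2874 in hac1hac5, and from 2929 and 3421 to 5258 and 1989 in med8med25. The 3 members lower in hac1hac5 became 1 with no filter, with a filter of 1 count per M reads, with equal totals and with a replicate block, and the 5 lower in med8med25 became 3 with equal totals. The 5 higher in med8med25 than in hac1hac5 became 3 with a pseudocount of 5, no filter, equal totals or the replicate block. Leaving out 1 library gave ranges of 0 to 3 and 21 to 26 (hac1hac5 lower and higher), 6 to 17 and 1 to 8 (med8med25 higher and lower against Col-0), and 1 to 5 and 18 to 28 (med8med25 higher and lower than hac1hac5). The cause was not tested. With limma voom on the recovered reads, chosen after seeing the data, the counts were 24 higher and 2 lower, 14 and 5, and 5 and 28.

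Replicate numbers in the labels were not used as pairs in the main fit. The deviations of same-numbered libraries from their genotype means correlated with r of -0.01, -0.13 and -0.23 over 18049 genes. Each genotype gives a single replicate difference, so these values cannot decide whether libraries were paired by number or otherwise. With the number as a block, 24 members were higher and 1 lower in hac1hac5, 13 and 5 in med8med25, and 3 and 26 between the mutants. With crossed numbers, an alternative chosen after seeing the data, the counts were 15 and 5 in med8med25 and 4 and 27 between the mutants.

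Among the 20 members whose values are given in every library, leaving out 1 library reversed the direction of 5 values, whose ranges were -0.31 to 0.08 for WRKY12 between the mutants, -0.11 to 0.19 for WRKY60 in hac1hac5 (-0.11 and -0.09 being the reversed values), -0.26 to 0.44 for WRKY75 in med8med25, -0.39 to 1.11 for WRKY70 in med8med25 and -0.51 to 0.99 for WRKY70 between the mutants. Values of other, uncalled members also changed sign over the alternatives, among them WRKY51 between the mutants (-1.23 to 1.19) and WRKY55 in hac1hac5 (-0.90 to 1.13). Over the single values of these 20 members, 939 kept direction and side of the threshold, 40 fell below it, 9 passed it and 6 reversed. With 2 libraries per genotype, changes at a few reads, as for WRKY12 and WRKY41, are the least certain.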
